A study of Mus musculus with 18 samples.

Results

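Fbxw13, Fbxw14, Fbxw15, Fbxw16, Fbxw18, Fbxw19, Fbxw20, Fbxw21, Fbxw24 and Fbxw28 are 10 mouse genes of a tandem array of F-box genes on chromosome 9, and they were followed here through 18 RNA-seq libraries of early mouse embryos. They were taken as a list of symbols, found under each symbol once in every file, and are 10 of the 55098 genes kept. The copies were chosen by their FPKM in these libraries, among them the lower values after crotonate than after DMSO. The crotonate values are therefore given as a description, with no test.

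An F-box protein is the part of an SCF ubiquitin ligase that binds the substrate. Its F-box docks on the adaptor Skp1, Skp1 sits on the scaffold Cul1, and the RING protein Rbx1 brings the enzyme that carries ubiquitin. In the Fbxw class the substrate is held by WD40 repeats. The genes of this array are known as transcripts stored by the mouse oocyte, the maternal RNA that embryos break down as their own genome is switched on. Fbxw15 has been described in mouse lung epithelial cells as the receptor for the histone acetyltransferase Hbo1; no substrate is named here for the other copies. No oocyte library was among the 18, so the levels below are those of embryos.

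The series is about crotonyl marks on histones in early embryos. One experiment knocked down Echs1, the enoyl-CoA hydratase that consumes crotonyl-CoA, with an siRNA (siEchs1), and its controls carried a control siRNA (siCon). It has 4 groups of 3 libraries, siEchs1 L2C, siCon L2C, siEchs1 E2C and siCon E2C, named by the stage labels. The other exposed zygotes labelled WT to crotonate or acetate, both as sodium salts, or to DMSO, and has 2 libraries per treatment, all of early 2-cell embryos (E2C). The labels give the genotype of the treatment samples only, no strain, dose or embryo age, and do not spell out L2C. Each library came from a tube of 5 to 10 pooled embryos, whose poly(A) RNA was amplified along its length by Smart-seq2. Nothing states that the tubes of a group came from separate matings or days, so that p-values measure the spread between these tubes. Values are FPKM, fragment numbers corrected for exon length and for the size of the library.

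Echs1 was listed at 0.89, 4.32 and 4.25 FPKM in siEchs1 L2C libraries, against 38.6, 39.2 and 24.4 FPKM in siCon L2C, and at 0.71, 5.88 and 3.82 FPKM in siEchs1 E2C, against 30.5, 27.5 and 32.5 FPKM in siCon E2C, so the target was low in all 6 knockdown libraries. FPKM summed to between 708113 and 1123990 per library, between 12037 and 16703 genes reached 1 FPKM, and the number of fragments is unknown. Replicate 3 of siEchs1 E2C stood apart from replicates 1 and 2 of its group. Test results of the listed copies that rest on it are given with and without it. Fold changes of single genes outside the list are given with it only. Mitochondrial transcripts held 0.831 to 2.27% of all FPKM in siEchs1 L2C libraries, against 7.58 to 11.2% in siCon L2C, and 2.82, 1.69 and 10.3% in siEchs1 E2C replicates 1, 2 and 3, against 13.1 to 17.0% in siCon E2C. Summed FPKM of 5 blood markers was 3.14 to 18.6 in siEchs1 L2C, against 90.5 to 124.6 in siCon L2C, and 2.74 to 10.5 in siEchs1 E2C, against 59.7 to 77.8 in siCon E2C. In siCon libraries nearly all of it was from Hba-a1 and Hba-a2, and 1 to 3 of the 5 reached 1 FPKM in a library. Of 12 cumulus and granulosa markers 1 to 4 reached 1 FPKM in a library, with 1 to 6 at 0; their sum was 11.5 to 18.2 FPKM in siEchs1 L2C, against 99.1 to 148.1 FPKM in siCon L2C, most of the siCon sum being Amhr2. Of the 3 tested genes of that list Cyp19a1 was higher in siEchs1 L2C (1.77, adjusted p = 0.0140, limma) and 2 were lower. Summed FPKM of 4 oviduct epithelium markers was 4.34 to 28.1 in siEchs1 L2C, against 99.3 to 179.2 in siCon L2C, where Epcam made up most of it, and 6 sperm and testis markers summed to at most 72.2 in any library. The part of these values in the results below was not tested.

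In the GENCODE vM21 annotation of mm10, 15 Fbxw genes lie side by side over 651.2 kb at chr9:109139447-109790670, all on the minus strand, with gaps of 12.08 to 38.74 kb between neighbours. The genes span 15.66 to 28.52 kb each, introns included. From the lowest coordinate the listed copies are Fbxw21 (chr9:109139447-109162041), Fbxw13 (chr9:109179227-109195975), Fbxw20 (chr9:109217432-109234754), Fbxw14 (chr9:109270790-109287676) and Fbxw28 (chr9:109322886-109339659). After Fbxw22 follow Fbxw16 (chr9:109432316-109449140) and Fbxw19 (chr9:109476654-109495875), then, beyond the pseudogene Fbxw23, Fbxw15 (chr9:109552602-109568262) and Fbxw24 (chr9:109601116-109626057). Fbxw18 (chr9:109676734-109702700) lies between Fbxw25 and the last genes of the array, Fbxw26 and Fbxw27. All 10 listed copies are annotated as protein-coding, as are 4 of the 5 others, and Fbxw23 (chr9:109516388-109534858) is annotated as a transcribed unprocessed pseudogene. Of 9 other annotated genes inside the array 0 are protein-coding. The antisense gene Gm42493 overlaps the start of Fbxw16 and the antisense gene Gm42756 the end of Fbxw15; the protocol keeps no strand, and these genes reached at most 2.56 and 2.51 FPKM in any library.

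The copies are near relatives, which bears on how reads can be told apart. Between the longest annotated protein-coding transcripts of the 10 copies, identity over 45 pairs had a median of 76.6% and lay between 57.2% and 87.1%. Of all stretches of 150 nt in these transcripts, the length of 1 read, 100% were unique to the copy in the mouse transcriptome for 8 of the 10. Exons outside these transcripts were not searched. Fbxw19, for example, has 3487 nt of exons and a transcript of 1483 nt here. The exceptions were Fbxw14 with 69.8% unique and Fbxw28 with 64.0%, the rest being shared within the array, so the levels of Fbxw14 and Fbxw28 are uncertain to the extent that the authors' counting split shared fragments.

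Promoter windows of 9 of the 10 copies were found in RefSeq's table for GRCm38.p6 (the assembly of mm10), which holds the 250 bases before and the 50 after a start. Over 36 pairs their identity had a median of 83.2% and lay between 64.8% and 96.7%, highest for Fbxw14 with Fbxw28. The 150 bases before the start are shown on the minus strand for the 3 copies with the highest levels and for Fbxw15 and Fbxw16, which differ in the size of their response below, so that the shared block can be read across them. Capitals mark E-boxes, CANNTG, which reads the same on both strands.
Fbxw28, chr9:109339660-109339809: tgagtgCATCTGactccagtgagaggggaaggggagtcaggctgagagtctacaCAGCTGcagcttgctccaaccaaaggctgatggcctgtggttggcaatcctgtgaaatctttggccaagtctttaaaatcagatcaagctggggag
Fbxw14, chr9:109287677-109287826: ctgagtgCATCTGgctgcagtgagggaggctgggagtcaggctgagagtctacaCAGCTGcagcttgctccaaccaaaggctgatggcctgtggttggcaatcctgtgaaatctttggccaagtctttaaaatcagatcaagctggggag
Fbxw24, chr9:109626060-109626209: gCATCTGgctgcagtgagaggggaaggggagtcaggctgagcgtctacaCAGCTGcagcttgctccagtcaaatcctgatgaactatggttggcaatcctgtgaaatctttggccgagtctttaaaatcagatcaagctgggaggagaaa
Fbxw15, chr9:109568263-109568412: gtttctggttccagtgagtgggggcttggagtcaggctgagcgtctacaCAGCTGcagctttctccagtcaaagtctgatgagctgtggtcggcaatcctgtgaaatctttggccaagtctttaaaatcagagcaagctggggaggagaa
Fbxw16, chr9:109449141-109449290: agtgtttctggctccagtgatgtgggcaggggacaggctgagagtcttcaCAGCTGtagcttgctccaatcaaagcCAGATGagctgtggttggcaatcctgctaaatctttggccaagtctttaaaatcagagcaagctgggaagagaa

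An E-box was found in 9 of the 9 windows of listed copies, and in 72.1% of 27025 promoter windows of the table. The form CAGCTG, singled out after the windows had been read, was found in 9 of 9 and occurs in 16.1% of the table's windows. The one nearest the start began between 125 and 80 bases before it. Each of these windows except that of Fbxw20 held another, which began 183 (Fbxw19) to 139 (Fbxw18) bases before the start. A run of 12 bases, aaatctttggcc, was shared by all 9 windows, begins 71 to 26 bases before the start, and was found in 12 windows of the table (0.0444%), 9 of listed copies and that of Fbxw26 among them. That run was searched for as the longest one present in all 9 windows, so its presence in them was fixed in advance. TAATTA was found in 0 of the 9 windows and in 5.31% of the table, searched like the others on both strands. The near variant TAATTG was found in 0 of the 9 and in 8.15% of the table, and the TATA-box core TATAAA in 0 of the 9 and in 14.2% of the table. The 9 windows are alike over most of their length, so a motif found in several of them is not an independent count.

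**Figure D1:**
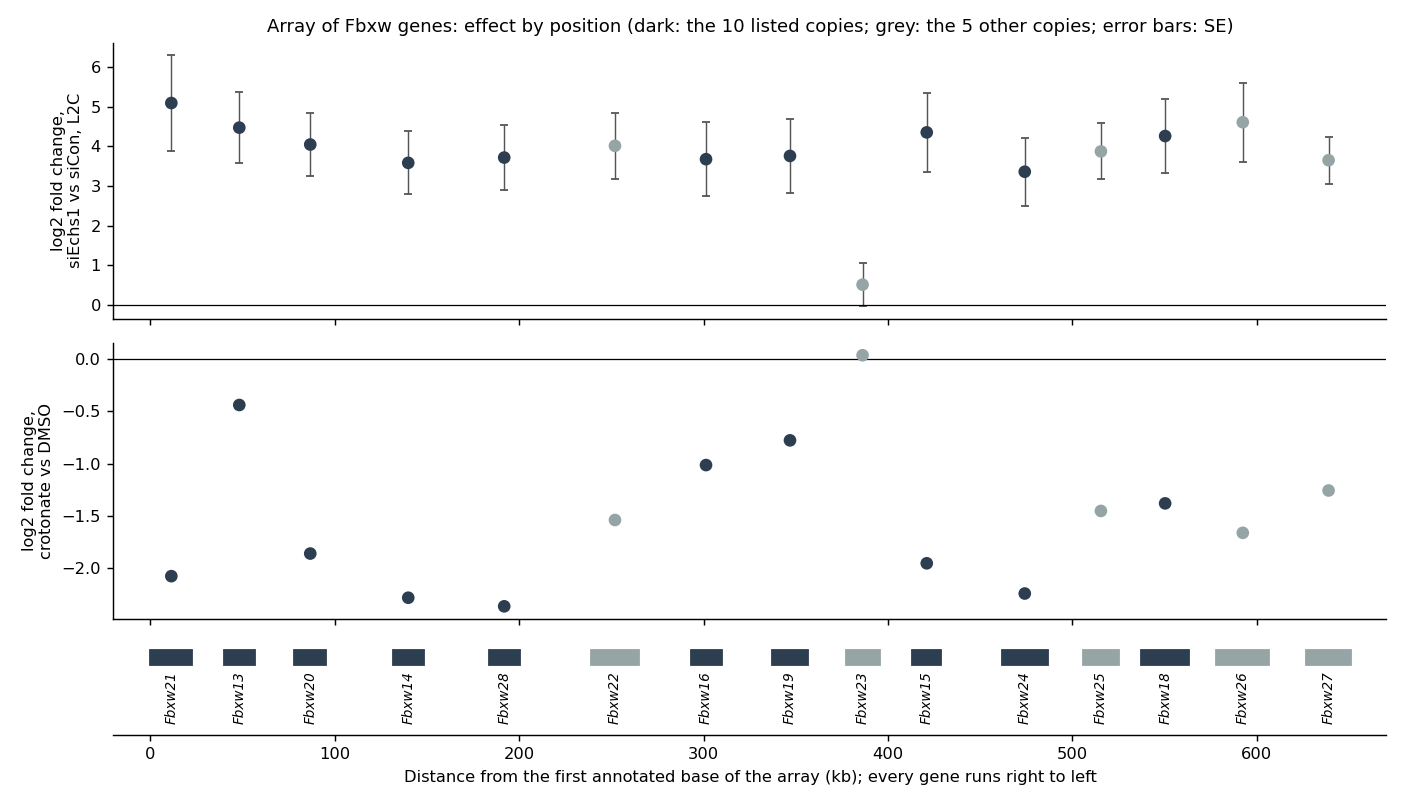
Map of the array by distance in kb from its first annotated base, with the log2 fold change of siEchs1 over siCon at L2C (top; error bars, SE) and of crotonate over DMSO (middle; no error given) for each gene. The 10 listed copies are dark and the other 5 grey; the pseudogene Fbxw23 lies at 0.52 at the top and 0.04 in the middle, while the 14 other genes lie between 3.36 and 5.09 at the top.

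At the stage labelled L2C, all 10 copies were higher in siEchs1 than in siCon embryos. Their summed level was 9549, 9039 and 9885 FPKM in siEchs1 L2C libraries (mean 9491 ± 426, SD, n = 3), against 683, 703 and 640 FPKM in siCon L2C (mean 675.5 ± 32.0, SD, n = 3), a ratio of means of 14.0. That sum held 1.26 to 1.40% of all FPKM of a siEchs1 L2C library, against 0.0767 to 0.0922% in siCon L2C. The groups did not overlap for any of the 10 copies, and 30.5% of all tested genes were higher without overlap.

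Fbxw28 and Fbxw24, the copies with the highest levels, were expressed at 1738, 1778 and 2148 FPKM and at 1906, 1784 and 1876 FPKM in siEchs1 L2C, against 144.7, 141.5 and 139.7 FPKM and 193.6, 192.6 and 155.6 FPKM in siCon L2C. Fbxw14, the third, was expressed at 1625, 1384 and 1499 FPKM in siEchs1 L2C, against 134.1, 121.6 and 117.1 FPKM in siCon L2C. The lowest siEchs1 library was thus several times above the highest siCon library for each of these 3 copies.

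Fbxw21 showed the largest change of the 10 copies in this comparison, with 691.7, 683.1 and 665.4 FPKM in siEchs1 L2C, against 13.3, 23.9 and 21.4 FPKM in siCon L2C. Its log2 fold change, on the scale of log2(FPKM + 1), was 5.09 ± 1.20 (SE), with an adjusted p of 0.00422 (limma on all 12 siRNA libraries, Benjamini-Hochberg over 17652 genes). Fbxw24 showed the smallest, 3.36 ± 0.86 with an adjusted p of 0.00671. The remaining 8 copies lay between these, with Fbxw13 at 4.47, Fbxw15 at 4.35, Fbxw18 at 4.26, Fbxw20 at 4.05, Fbxw19 at 3.76, Fbxw28 at 3.72, Fbxw16 at 3.68 and Fbxw14 at 3.58.

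Fbxw13, the copy with the lowest level, was expressed at 151.4, 111.8 and 139.7 FPKM in siEchs1 L2C, against 4.47, 6.85 and 4.16 FPKM in siCon L2C. Fbxw20, the next lowest, was at 307.0, 299.5 and 277.1 FPKM in siEchs1 L2C, against 19.1, 17.3 and 14.5 FPKM in siCon L2C. Low and high copies were thus both higher under knockdown, by 10.3-fold (Fbxw24) to 34.8-fold (Fbxw21) as ratios of mean FPKM.

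All 10 copies passed the threshold of an adjusted p under 0.05, with adjusted p between 0.00137 (Fbxw20) and 0.00671 (limma), where 21.9% of the 17652 genes tested were called higher. The median log2 fold change of the 10 copies was 3.90, beside a median of -0.08 over all genes tested. In each of 20 other settings, leaving out each library included, 10 of 10 stayed called. All 10 passed the filter on low values, in which their lowest value was 4.16 FPKM.

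**Figure D2:**
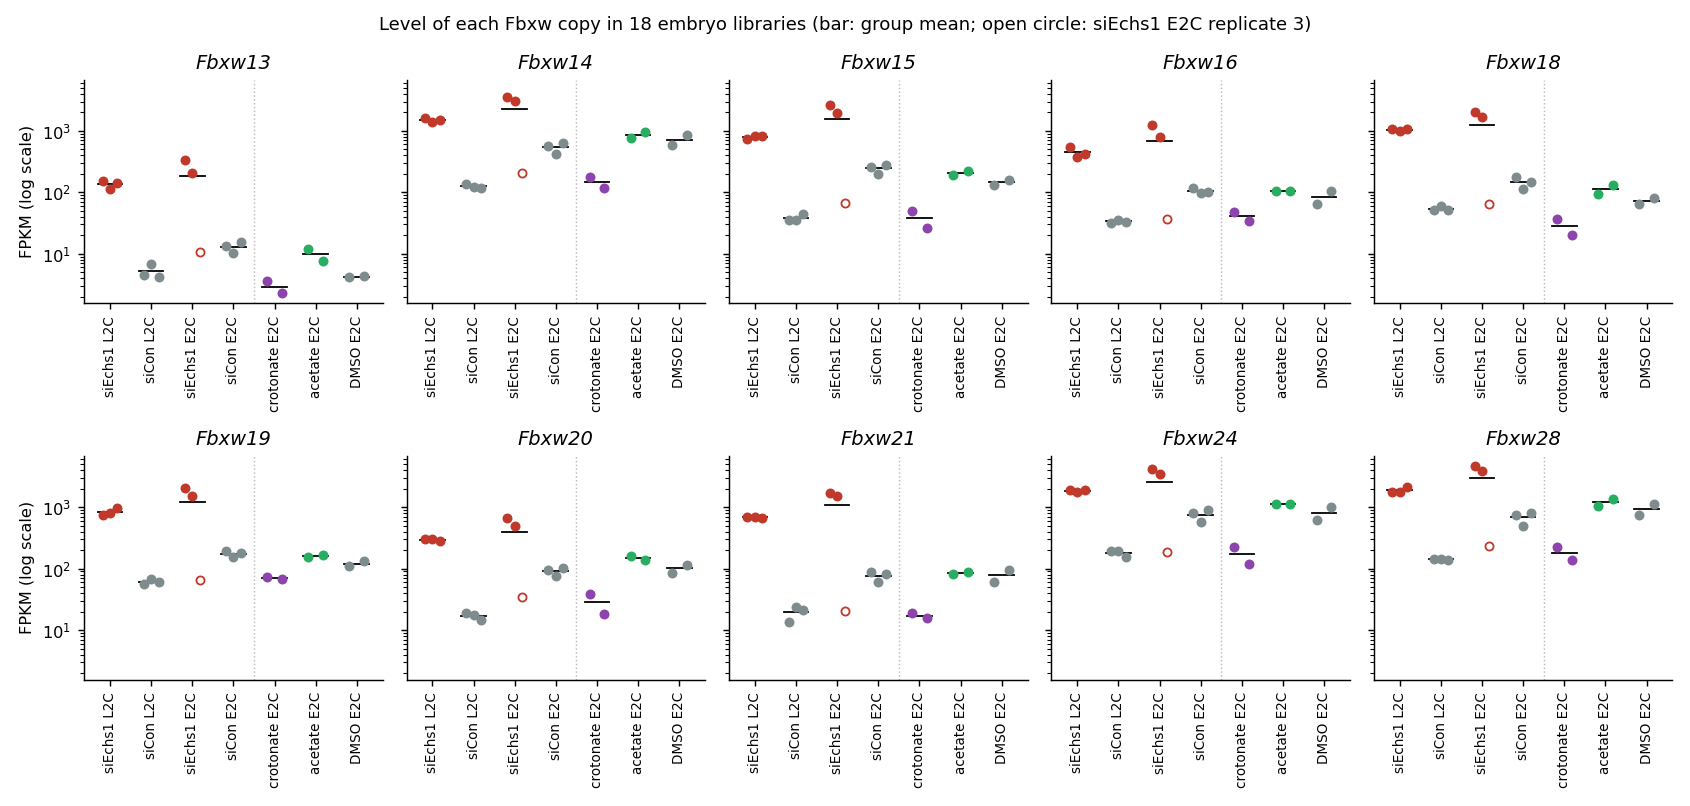
FPKM (log scale) of each listed copy in every library, with a bar at each group mean; siRNA groups stand left of the dotted line and treatment groups right of it. In each panel the 3 siEchs1 L2C points lie above the 3 siCon L2C points, and the open circle, replicate 3 of siEchs1 E2C, lies far below the other siEchs1 E2C points.

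At E2C the siEchs1 libraries disagreed with each other. The summed level was 23046 and 18641 FPKM in replicates 1 and 2 of siEchs1 E2C and 928.4 FPKM in replicate 3, against 3090, 2195 and 3220 FPKM in siCon E2C. In replicates 1 and 2, 10 of 10 copies lay above every siCon library, at 5.58 to 26.0 and 4.5 to 19.6 times the siCon mean. In replicate 3, 9 of 10 copies lay below every siCon library and Fbxw13 within their range, at 0.242 to 0.818 times the siCon mean. The share of all genes that lay outside the siCon range in each of these libraries was not counted, so these counts are a description only. The groups overlapped for all 10 copies.

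Fbxw28 shows the split in FPKM, with 4638, 3950 and 235.6 in siEchs1 E2C replicates 1, 2 and 3, against 760.6, 498.1 and 794.5 in siCon E2C. Fbxw21 was at 1702, 1510 and 20.7 FPKM in siEchs1 E2C, against 87.6, 59.9 and 83.0 FPKM in siCon E2C. Fbxw15 was at 2635, 1984 and 67.9 FPKM in siEchs1 E2C, against 257.6, 196.3 and 281.4 FPKM in siCon E2C. For these 3 copies the first 2 replicates were the highest values of the whole series and the third was below the control range.

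With all libraries, Fbxw13 alone was called, with 335.0, 204.7 and 10.6 FPKM in siEchs1 E2C, against 13.1, 10.3 and 15.3 FPKM in siCon E2C, and a log2 fold change of 2.76 ± 0.90 (SE, adjusted p = 0.0484, limma). That is 1 of 10 copies higher and 0 lower, where 11.0% of all tested genes were called higher. The call ended with a pseudocount of 0.1, without the filter, with quantile normalization, with the 6 compared libraries alone, and without any other single library. The other 9 copies had log2 fold changes of 0.89 (Fbxw24) to 2.31 (Fbxw21) and did not pass, 2 of the 10 having an unadjusted p under 0.05; the median of the 10 was 1.60, beside 0.15 over all genes.

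Without replicate 3, all 10 copies were called higher in siEchs1 E2C, where 23.2% of 17444 genes were. Their log2 fold changes were then 2.35 (Fbxw24) to 4.38 (Fbxw21), with adjusted p between 3.46e-07 and 1.97e-05 (limma). The rank order of the effect was alike at both stages in its ends, Fbxw21 and Fbxw13 having the largest values and Fbxw24 the smallest. The Echs1 level of replicate 3, 3.82 FPKM, lay between those of replicates 1 and 2.

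**Figure D3:**
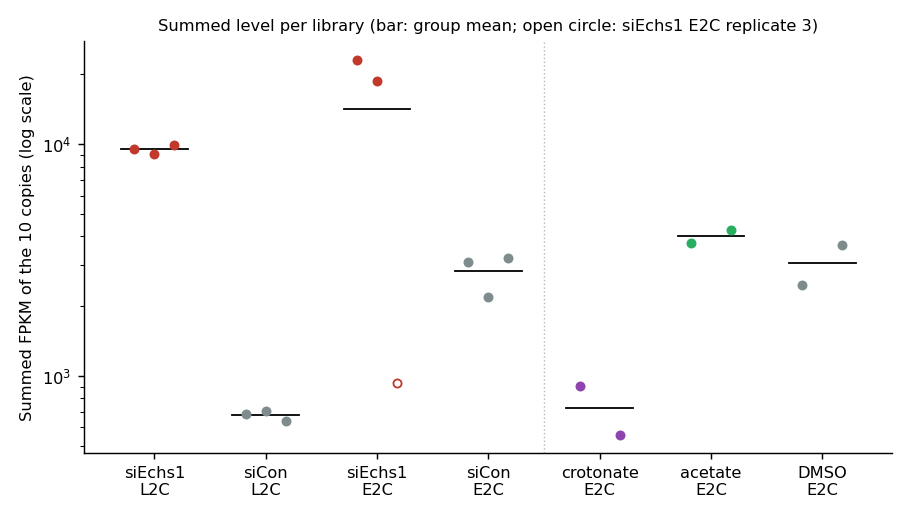
Summed FPKM of the 10 copies (log scale) in each library, with group means as bars. The sum lies at 9039 to 9885 in siEchs1 L2C and at 640 to 703 in siCon L2C, while replicate 3 of siEchs1 E2C (open circle, 928.4) lies below the siCon E2C libraries; crotonate libraries lie below the acetate and DMSO libraries.

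Between the stages, the copies were lower at L2C than at E2C in siCon embryos. Their summed level was 675.5 ± 32.0 FPKM in siCon L2C, against 2835 ± 558 FPKM in siCon E2C (SD, n = 3 each), a log2 ratio of -2.07. All 10 copies were lower without overlap between the groups, as were 21.0% of all tested genes. In bulk libraries of pooled embryos, fewer cells with a transcript and less of it per cell cannot be told apart.

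Fbxw15 had the largest change, with 35.3, 35.5 and 43.9 FPKM in siCon L2C, against 257.6, 196.3 and 281.4 FPKM in siCon E2C, and a log2 fold change of -2.64 ± 0.99 (SE, adjusted p = 0.0406, limma). Fbxw20 (-2.35, adjusted p = 0.0266), Fbxw28 (-2.23, adjusted p = 0.0398) and Fbxw14 (-2.10, adjusted p = 0.0425) were also called in the limma fit. These 4 of 10 called lower stand beside 14.4% of all tested genes called lower. The count was 0 with no filter on low values, 2 with quantile normalization (Fbxw15 and Fbxw20), and 0 or 1 in 9 of the 12 fits that left out 1 library, each siCon and each siEchs1 L2C library. The other 6 had log2 fold changes of -2.04 (Fbxw24) to -1.18 (Fbxw13).

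The spread in that fit is shared by all 12 siRNA libraries, replicate 3 of siEchs1 E2C among them. With the 6 siCon libraries fitted alone, 10 of 10 copies were called lower (adjusted p from 7.60e-06 to 0.00628, limma), where 19.9% of genes were, and without replicate 3 of siEchs1 E2C 10 of 10 were (1.07e-06 to 0.00262), where 18.7% of genes were. The log2 fold changes were the same in the 3 fits, since the siCon values did not change. The median of the 10 copies was -1.99, while the median of all genes was 0.51 as deposited, -0.01 with quantile normalization and 0.76 without mitochondrial and ribosomal RNA. The 10 copies were below the median of all genes under each of these scalings.

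In siEchs1 embryos the stage comparison turned on replicate 3. The summed level was 9491 ± 426 FPKM in siEchs1 L2C, against 14205 ± 11707 FPKM in siEchs1 E2C (SD, n = 3 each). With all libraries 0 of 10 copies were called (14.6% of all genes were, in either direction; limma), with an unadjusted p under 0.05 for 0 of 10, and mean log2 fold changes were 0.16 to 0.83, while ratios of mean FPKM were below 1 for all 10, at 0.510 to 0.829. Without replicate 3, all 10 were called lower at L2C, by log2 fold changes of -1.52 (Fbxw15) to -0.83 (Fbxw18), with adjusted p from 0.00128 to 0.0453 (limma), where 5.14% of genes were called lower.

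The difference between the knockdown effects, L2C minus E2C, was 1.72 (Fbxw13) to 2.80 (Fbxw15) on the log2 scale. It was called for 0 of 10 copies, where 17.2% of genes were called in either direction (limma); Fbxw20 had an unadjusted p under 0.05 (2.73, adjusted p = 0.112). Without replicate 3 of siEchs1 E2C the difference was 0.21 to 1.39 and was called for 4 copies, where 7.46% of genes were called higher. Those were Fbxw20 (1.39, adjusted p = 0.0126), Fbxw15 (1.12, adjusted p = 0.0313), Fbxw28 (1.04, adjusted p = 0.0440) and Fbxw24 (1.01, adjusted p = 0.0478).

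**Figure D4:**
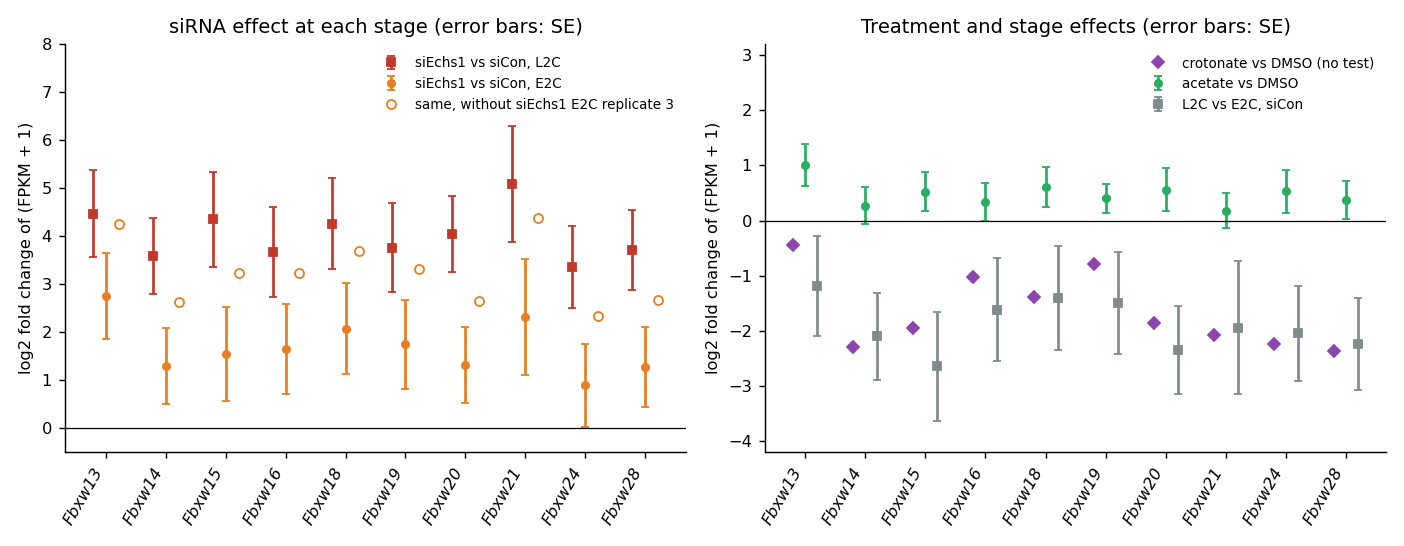
Log2 fold change of (FPKM + 1) for each listed copy, with SE as error bars. Left, siEchs1 over siCon lies at 3.36 to 5.09 at L2C and at 0.89 to 2.76 at E2C, or 2.35 to 4.38 without siEchs1 E2C replicate 3 (open circles); right, crotonate over DMSO lies at -2.36 to -0.44, acetate over DMSO at 0.18 to 1.01, and L2C over E2C in siCon at -2.64 to -1.18.

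In the treatment experiment the copies were lower in crotonate than in DMSO, in the contrast that the choice of the list had used. That direction is therefore not a result of its own. The summed level was 903.2 and 558.0 FPKM in crotonate libraries (mean 730.6 ± 244.1, SD, n = 2), against 2478 and 3655 FPKM in DMSO (mean 3067 ± 832, SD, n = 2), a log2 ratio of -2.07. All 10 copies were lower in both crotonate libraries than in either DMSO library, where 38.4% of all tested genes were lower without overlap; nothing is read from this count.

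The 3 copies with the highest levels had the lowest ratios. Fbxw28 was at 225.1 and 139.3 FPKM in crotonate, against 754.2 and 1111 FPKM in DMSO, a log2 fold change of -2.36. Fbxw14 was at 180.5 and 115.9 FPKM in crotonate, against 587.5 and 851.1 FPKM in DMSO (-2.28). Fbxw24 was at 228.4 and 119.2 FPKM in crotonate, against 612.8 and 1004 FPKM in DMSO (-2.24).

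Fbxw21 (-2.08), Fbxw15 (-1.95), Fbxw20 (-1.86) and Fbxw18 (-1.38) came next. Fbxw16, at 47.6 and 33.5 FPKM in crotonate, against 64.0 and 104.2 FPKM in DMSO, had a log2 fold change of -1.01. Fbxw19, at 73.1 and 67.0 FPKM in crotonate, against 110.4 and 132.0 FPKM in DMSO, had a log2 fold change of -0.78. Fbxw13 was at 3.56 and 2.29 FPKM in crotonate, against 4.12 and 4.39 FPKM in DMSO, and its log2 fold change of -0.44 is the least of the 10 on a scale that understates changes of low values. The copies thus spread over a range of nearly 2 on the log2 scale, with Fbxw13, Fbxw19 and Fbxw16 at the small end.

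Acetate libraries, the other short-chain acid of the design, did not lie below DMSO. The summed level was 3761 and 4282 FPKM in acetate, against 2478 and 3655 FPKM in DMSO. None of the 10 copies was called (limma on the 6 treatment libraries, Benjamini-Hochberg over 13789 genes), where 0.0653% of genes were called in either direction, and 1 of 10, Fbxw13, had an unadjusted p under 0.05 (11.8 and 7.72 FPKM in acetate, against 4.12 and 4.39 FPKM in DMSO, log2 fold change 1.01 ± 0.38, SE, adjusted p = 0.784). The other log2 fold changes were 0.18 (Fbxw21) to 0.61 (Fbxw18). For 6 of the 10 the acetate libraries lay above both DMSO libraries, where 16.2% of genes did. The choice of the list had used the DMSO values, so nothing is read from this count or from these p-values. With 2 libraries a group, a p that misses the threshold does not show equal levels.

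This comparison shares its DMSO libraries with the crotonate contrast, and the next shares the crotonate libraries, so that the 3 sets of values are given side by side and not as separate support. Crotonate lay below acetate for all 10 copies, where 27.6% of genes were lower without overlap, by log2 fold changes of -2.77 (Fbxw24) to -1.18 (Fbxw19). The crotonate sums of 903.2 and 558.0 FPKM stand against 3761 and 4282 FPKM in acetate.

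In the order of levels, the copies kept their places at both ends. Fbxw24, Fbxw28 and Fbxw14 were the 3 highest and Fbxw13 the lowest by mean FPKM in all 7 groups. FPKM is scaled by length, but the lengths used are not given, and the order and shares of the copies depend on them. Fbxw19, for example, has 3487 nt of exons in the GENCODE annotation, while its longest coding transcript has 1483 nt. Fbxw28 came before Fbxw24 in 5 groups, and Fbxw24 before Fbxw28 in siCon L2C and siCon E2C; their ranges overlapped in every group except siCon L2C. Fbxw14 was separated from the next copy in every group except siEchs1 E2C, where the ranges of all neighbours overlapped with replicate 3 included. Fbxw15, Fbxw16, Fbxw18, Fbxw19, Fbxw20 and Fbxw21 filled the middle in orders that changed from group to group.

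The make-up of the sum in siEchs1 and siCon libraries is given as a description, with no test. Fbxw24, Fbxw28 and Fbxw14 together held 54.7 to 55.9% of the sum in siEchs1 L2C, against 64.4 to 69.2% in siCon L2C. Fbxw21 held 7.18 ± 0.42% in siEchs1 L2C, against 2.90 ± 0.82% in siCon L2C, and Fbxw24 held 19.6 ± 0.5%, against 26.7 ± 2.1% in siCon L2C (SD, n = 3 each). Shares did not overlap between the groups for 7 of the 10 copies. They were higher in siEchs1 L2C for Fbxw13, Fbxw15, Fbxw18, Fbxw20 and Fbxw21 and lower for Fbxw14 and Fbxw24. Shares of 1 sum depend on each other, and genes outside the list have none, so nothing is read from this count. Fbxw18 held 11 ± 0.3% in siEchs1 L2C, against 7.94 ± 0.52% in siCon L2C, and Fbxw13 held 1.41 ± 0.17% in siEchs1 L2C, against 0.759 ± 0.186% in siCon L2C.

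Replicate 3 of siEchs1 E2C, whose sum was low, had the shares of its group for some copies and not for others. Fbxw24 held 18.3, 18.3 and 19.8% of the sum in siEchs1 E2C replicates 1, 2 and 3, against 26.0 to 27.5% in siCon E2C. Fbxw13 held 1.45, 1.10 and 1.14% in siEchs1 E2C, against 0.425 to 0.474% in siCon E2C. For these copies, and for Fbxw18 and Fbxw19, the shares of all 3 knockdown libraries stood apart from those of all 3 controls, which was not tested. Fbxw21, in contrast, held 7.39, 8.10 and 2.23% in siEchs1 E2C, against 2.58 to 2.83% in siCon E2C, so that replicate 3 was below the control range.

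In both crotonate libraries 4 of the 10 copies, Fbxw13, Fbxw16, Fbxw18 and Fbxw19, held larger shares of the sum than in either DMSO library. Fbxw14 and Fbxw28 held smaller ones. The choice of the list had used these values, genes outside it have no such share, and nothing is read from these counts. The shares of Fbxw13 rest on low values, 2.29 to 4.39 FPKM in these libraries. Fbxw19 held 8.09 and 12% of the sum in crotonate, against 4.46 and 3.61% in DMSO, and Fbxw16 held 5.27 and 6.0% in crotonate, against 2.58 and 2.85% in DMSO. Fbxw18 held 4.03 and 3.67% in crotonate, against 2.62 and 2.23% in DMSO, and Fbxw13 held 0.394 and 0.410% in crotonate, against 0.166 and 0.120% in DMSO. The 3 highest copies held 67.1 to 70.2% in crotonate, against 78.9 to 81.2% in DMSO.

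**Figure D5:**
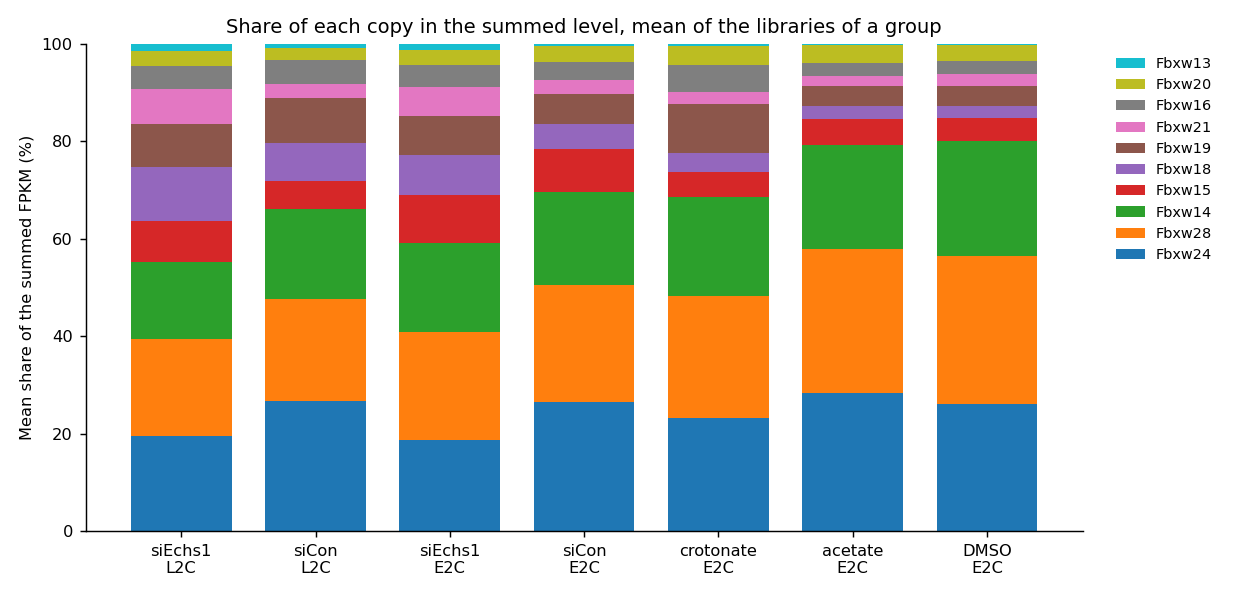
Mean share of each listed copy in the summed FPKM, in percent, by group. Fbxw24, Fbxw28 and Fbxw14 at the foot of each bar hold the largest part, 54.7 to 55.9% per library in siEchs1 L2C and 78.9 to 81.2% in DMSO, and the band of Fbxw21 is widest in the siEchs1 groups.

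The 5 other Fbxw genes of the array were not on the list. Fbxw26 was at 368.6, 351.9 and 362.3 FPKM in siEchs1 L2C, against 12.5, 16.7 and 12.8 FPKM in siCon L2C (log2 fold change 4.61, adjusted p = 0.00237, limma). Fbxw22 (4.01, adjusted p = 0.00188), Fbxw25 (3.87, adjusted p = 0.000840) and Fbxw27 (3.65, adjusted p = 0.000416) were called higher in the same limma fit. The pseudogene Fbxw23, named here after its values had been seen, was at 79.9, 75.5 and 92.8 FPKM in siEchs1 L2C, against 68.3, 59.1 and 46.7 FPKM in siCon L2C, so that the groups did not overlap, but it did not pass the test (0.52 ± 0.54, SE, adjusted p = 0.455, limma). Fbxw23 was also at 85.1 and 74.1 FPKM in crotonate, against 64.2 and 93.5 FPKM in DMSO, where the 4 protein-coding neighbours had log2 fold changes of -1.66 to -1.26. The RefSeq start of Fbxw23 lies 8331 bases from the end of its GENCODE gene, and its window was 46.1 to 50.4% identical to those of listed copies.

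Over the 12 siRNA libraries, the genes outside the list whose profile was nearest to that of the sum were Fbxw22 and Fbxw25, with mean absolute differences of centred log2(FPKM + 1) of 0.222 and 0.230. Next came Amn1 (0.282), named for a yeast regulator of mitotic exit, Rfc3 (0.294), a subunit of the clamp loader of DNA replication, and Tpmt (0.296), thiopurine methyltransferase. The median over 10239 genes was 1.76, Fbxw26 and Fbxw27 were 78th and 99th in the order, and Fbxw23 was 2564th. Each listed copy was compared with the sum of the other listed copies, so its value is not on the same footing as those above. By that measure Fbxw28 (0.144) was nearest and Fbxw21 (0.724) farthest.

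Of a list of other Fbxw genes 14 were tested, 4 of them the protein-coding neighbours in the array. All 4 neighbours rose in siEchs1 L2C. Of the 10 outside the array 3 rose and 2 fell, with a median log2 fold change of 0.11, beside -0.08 over all genes; 21.9% of all genes were called higher and 26.9% lower. Fbxw8, an F-box protein that works with Cul7, rose (3.07, adjusted p = 4.90e-05, limma), as did Fbxw17 (3.15, adjusted p = 0.00126) and Btrc (3.46, adjusted p = 0.00519). Fbxw2 fell (-1.91, adjusted p = 0.00128, limma), and Fbxw9 was at 9.47, 8.39 and 6.54 FPKM in siEchs1 L2C, against 44.8, 46.2 and 73.8 FPKM in siCon L2C (-2.59, adjusted p = 0.000382). In siEchs1 E2C 2 of the 10 outside the array rose and 0 fell, and 0 of the 4 neighbours were called. Of all genes, 11.0% were called higher and 9.31% lower at E2C. Over all 14 the E2C counts were 8 and 0 without replicate 3, where 23.2% of genes were called higher.

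Of 13 tested genes of a list of other SCF ligase parts and regulators, 5 rose and 2 fell in siEchs1 L2C (limma), where 21.9% of all genes were called higher and 26.9% lower. In siEchs1 E2C 3 rose and 2 fell, where 11.0% of all genes were called higher and 9.31% lower. The E2C counts were 4 and 2 without replicate 3, 2 and 0 under quantile normalization, and 3 and 0 without mitochondrial and ribosomal RNA. Skp1a, the adaptor, was at 1227, 2026 and 1998 FPKM in siEchs1 L2C, against 346.2, 380.4 and 185.1 FPKM in siCon L2C (2.55, adjusted p = 0.00176). Rbx1, the RING protein, rose at L2C (0.87, adjusted p = 0.0382) and fell at E2C (-1.0, adjusted p = 0.0440). Cul1, the scaffold, had a log2 fold change of 0.0053 at L2C (adjusted p = 0.992) and fell at E2C (-1.17, adjusted p = 0.0220). Neither fall at E2C, of Rbx1 or of Cul1, was called under quantile normalization or without mitochondrial and ribosomal RNA. The 3 that rose at E2C were Ube2m (1.96, adjusted p = 0.0134), Fbxo5 (1.73, adjusted p = 0.0166) and Cops5 (1.39, adjusted p = 0.0432, limma). Cand1, which exchanges F-box proteins on Cul1, fell at L2C (-1.87, adjusted p = 0.00202), and so did Skp2, an F-box protein of the cell cycle (-1.87, adjusted p = 0.00319).

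The stage markers give the setting of these changes. Of 25 oocyte transcripts on a list, 18 rose and 2 fell in siEchs1 L2C and 15 rose and 4 fell in siEchs1 E2C (limma). Their median log2 fold changes were 4.02 and 2.66, beside -0.08 and 0.15 over all genes. Of all tested genes, 21.9% were called higher and 26.9% lower at L2C, and 11.0% higher and 9.31% lower at E2C. Without replicate 3 of siEchs1 E2C, 18 rose and 6 fell at E2C, where 23.2% of genes were called higher. Zar1, a maternal RNA-binding protein, was at 2195, 1334 and 1684 FPKM in siEchs1 L2C, against 24.9, 26.0 and 27.2 FPKM in siCon L2C. Ooep, of the subcortical maternal complex, was at 940.4, 1148 and 1141 FPKM in siEchs1 L2C, against 30.5, 30.3 and 45.3 FPKM in siCon L2C. Abundant transcripts were among those that fell. Omt2b, one of a pair of similar genes that can share reads, fell in siEchs1 L2C, with 1848, 2021 and 2231 FPKM, against 9003, 9623 and 9048 FPKM in siCon L2C, and so did Tcl1 (-1.14, adjusted p = 0.00257, limma). In siEchs1 E2C Omt2b (-2.21, adjusted p = 0.000928), Dppa3 (-1.24, adjusted p = 0.00883), Oosp1 (-1.23, adjusted p = 0.0145) and Tcl1 (-0.88, adjusted p = 0.0266) fell, named here after their values had been seen. The number called lower at E2C was 0 under quantile normalization and 2 without mitochondrial and ribosomal RNA. The summed level of the list was 32435 to 47884 FPKM in siEchs1 E2C, against 69922 to 73985 FPKM in siCon E2C. At L2C the order was the other way, with 33973 to 41620 FPKM in siEchs1, against 18197 to 20029 FPKM in siCon. Omt2b alone was at 34093, 35365 and 36604.5 FPKM in siCon E2C, against 7851, 4646 and 12328 FPKM in siEchs1 E2C. Of 17 tested 2-cell transcripts, 1 rose and 14 fell in siEchs1 L2C and 0 rose and 11 fell in siEchs1 E2C. The shares of all genes to set beside these counts are those given above. Without replicate 3 of siEchs1 E2C, 0 rose and 12 fell at E2C. Zscan4d was at 15.2, 14.6 and 10.1 FPKM in siEchs1 L2C, against 101.7, 67.2 and 67.0 FPKM in siCon L2C. The lists were chosen with earlier results of these data known, and their counts are not independent evidence of a direction.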

How the data were processed

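The labels describe 18 Smart-seq2 libraries with paired 150-nt reads. The submitters' processing notes name cutadapt 1.16, STAR and the build mm10; how FPKM was computed, and with which annotation, is not given in the sources used here. FPKM values were deposited by the authors, 1 file per library with 55335 rows, and no counts, so the depth is unknown and no interval from counting can be given. Symbols listed more than once or read as dates were dropped. Titles gave the groups; for siEchs1 L2C replicates 2 and 3 the file headers give the numbers the other way round.

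Values were tested as log2(FPKM + 1) with limma-trend and robust variance (limma 3.58.1, R 4.3.3), two-sided, with 12 siRNA libraries in 1 fit and 6 treatment libraries in another, after a filter that asked for 1 FPKM or more in 3 siRNA or 2 treatment libraries (17652 and 13789 genes). Called means a Benjamini-Hochberg adjusted p under 0.05 over all of these genes; every adjusted p in the text is from limma. The scale understates changes of low genes. Crotonate contrasts of the listed copies and the summed FPKM have no test. Pairs of sequences were aligned with Biopython 1.88.

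The genes and lists were chosen with earlier results of these data known. Named by rule were the 10 copies, up to 4 called genes per list in a siRNA comparison, and the 5 genes most like the sum among those with a mean of at least 5 FPKM. Deviations of libraries with the same replicate number in the titles had correlations of -0.10 to 0.11 over 18 siRNA pairs and -0.10 to 0.16 over 6 treatment pairs. With 2 libraries a group the deviations mirror each other, so the treatment pairs are not all separate values. By the header numbers, the pairs of siCon L2C with siEchs1 L2C had 0.11, 0.09 and 0.22. The numbers were not used as a block in the main analysis. The other settings were a pseudocount of 0.1, no filter, quantile normalization, FPKM rescaled without mitochondrial and ribosomal RNA, no trend, the replicate number as a block, the compared libraries alone, and leaving out each library.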

Additional observations from a re-analysis of the deposited data

Results flagged for a closer look

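None of the 10 listed copies met a rule for a closer look with all libraries. Of the other genes named, 8 had a knockdown effect that differed between the stages by the interaction term (L2C minus E2C, log2, limma). It was higher at L2C for Ooep by 3.98 (adjusted p = 0.00686), for Fbxw27 by 3.03 (adjusted p = 0.0280), for Zar1 by 2.77 (adjusted p = 0.0313), for Rbx1 by 1.87 (adjusted p = 0.0175), for Oosp1 by 1.63 (adjusted p = 0.0239) and for Dppa3 by 1.37 (adjusted p = 0.0314). It was lower at L2C for Fbxw9, with -3.10 (adjusted p = 0.00687), and for Cand1, with -2.12 (adjusted p = 0.0233). Fbxw27 is a gene of the array, at 404.1, 436.4 and 550.4 FPKM in siEchs1 L2C, against 31.9, 44.8 and 31.8 FPKM in siCon L2C, and at 882.2, 733.4 and 116.8 FPKM in siEchs1 E2C, against 260.2, 237.7 and 337.5 FPKM in siCon E2C. The interaction takes in replicate 3 of siEchs1 E2C, and its values without that replicate are not given for these 8 genes.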

How the results depend on the processing

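All 10 copies were called higher in siEchs1 L2C under each of 20 settings, with log2 fold changes of 3.26 to 5.58 and adjusted p from 3.08e-08 to 0.0265 (limma). The count of 1 higher in siEchs1 E2C was 0 with a pseudocount of 0.1, no filter, quantile normalization or the compared libraries alone, and 0 to 10 leaving out 1 library, 10 being without siEchs1 E2C replicate 3. The count of 4 lower at L2C in siCon was 0 with no filter, 2 with quantile normalization, 10 with the compared libraries alone, and 0 to 10 leaving out 1 library, 10 again without that replicate. In siEchs1 the count of 0 lower at L2C was 0 to 10 leaving out 1 library. The stage difference of the effect was called for 0 copies, 1 with quantile normalization, and 0 to 4 leaving out 1 library. Why a call was lost without another single library was not tested.

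Without siEchs1 E2C replicate 3 the sign of L2C over E2C in siEchs1 turned for every copy. Leaving out 1 library, that log2 fold change was -0.97 to 1.46 (Fbxw13), -1.15 to 0.90 (Fbxw14), -1.52 to 1.11 (Fbxw15), -1.17 to 1.36 (Fbxw16), -0.83 to 1.64 (Fbxw18), -1.06 to 1.42 (Fbxw19), -0.95 to 1.14 (Fbxw20), -1.24 to 1.91 (Fbxw21), -1.03 to 1.23 (Fbxw24) and -1.19 to 0.96 (Fbxw28). The acetate fold change was -0.0104 to 0.68 (Fbxw16) and -0.14 to 0.49 (Fbxw21), below 0 without DMSO replicate 1. The log2 ratio of the summed level moved at L2C from 3.81 to 4.49 with quantile normalization and in siCon between stages from -2.07 to -1.71 without mitochondrial and ribosomal RNA; leaving out 1 library it was 0.14 to 0.70 for acetate over DMSO and -2.85 to -2.15 for crotonate over acetate. The cause was not tested. With the replicate number as a block, from titles or headers, 10 copies stayed higher in siEchs1 L2C, 1 in siEchs1 E2C and 4 lower in siCon L2C. Depth is unknown, and 2 or 3 tubes a group limit the precision.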
